A study of Mus musculus with 24 samples.

Results

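The transcripts described here are those of 10 membrane proteins through which a T cell takes up or releases nutrients: Slc2a1, Slc2a3, Slc7a5, Slc3a2, Slc1a5, Slc7a1, Slc38a2, Slc16a1, Slc16a3 and Tfrc. Members were taken by gene name, as every probe on the array annotated to one of these genes, which gave 15 probes of 39429 gene probes. Of the 10 genes, 8 passed the filter on signal and were tested among 9423 genes, and Slc16a1 and Tfrc did not pass it. The samples were CD8+ T cells that carried CD45.1 and the OT-I T cell receptor transgene (C57BL/6-Tg(TcraTcrb)1100Mjb/J), which recognises a peptide of ovalbumin. Graft samples were taken on day 0 (4 arrays), and blood, liver, lung and small intestine samples were taken 4 days after transplantation into C57Bl/6-Tg(CAG-OVA)-916Jen/J recipients (5 arrays per site). These recipients express membrane ovalbumin from a broadly active promoter, so the antigen is not restricted to 1 tissue. All mice were female and 8 to 16 weeks old. Recipients had 11 Gy of irradiation in 2 doses and then bone marrow and splenocytes, which the labels call allogeneic although both strain names are C57BL/6. Per the labels only the OT-I CD8+ cells carried CD45.1, and they were purified on magnetic beads with an antibody to it. Each sample entered with 300 pg of RNA, amplified in 2 linear rounds. Whether samples came from separate animals is not stated in the labels, so the p-values speak only for the spread among these samples, which may in part be technical.

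A resting T cell lives on little glucose and few amino acids, and an activated one raises uptake of both to build the mass needed for division. Slc2a1 and Slc2a3 encode the glucose transporters GLUT1 and GLUT3. Slc7a5 encodes LAT1, which carries leucine and other large neutral amino acids and works only when joined to the heavy chain CD98 encoded by Slc3a2. Slc1a5 and Slc38a2 encode the neutral amino acid carriers ASCT2 and SNAT2, which take up glutamine, and Slc7a1 encodes the arginine and lysine carrier CAT1. Slc16a1 and Slc16a3 encode the lactate carriers MCT1 and MCT4. Tfrc encodes the transferrin receptor CD71, through which iron enters the cell. Several of these genes are known targets of Myc, of hypoxia-inducible factors or of the amino acid stress factor ATF4.

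The sequences that matter to what follows are the array probes whose readings differ within a gene or stay dim, and the promoters of measured members that hold a motif searched for. Slc7a5 had a pair of probes that gave different differences between day 4 and graft, and all 3 Tfrc probes stayed at background. The second Slc7a5 probe (A_55_P2017972, chr8:124430996-124431055 on the minus strand, mm9) lies 25800 bases from the first (A_55_P1973941, chr8:124405136-124405195). The Tfrc probe A_51_P167876 covers 60 bases of transcript spread over 217 bases of the genome (chr16:32624877-32625093, plus strand, mm9), as a probe across a splice junction does. Both are shown whole, 5′ to 3′, as the files give them:
Slc7a5 A_55_P2017972: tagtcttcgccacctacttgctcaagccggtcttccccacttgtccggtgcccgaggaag
Tfrc A_51_P167876: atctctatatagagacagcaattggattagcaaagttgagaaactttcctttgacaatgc

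Promoter windows of 250 bases before the transcription start were listed by RefSeq (GRCm38.p6) for 7 of the 10 genes, in 9 windows. They were searched on both strands for the E-box CACGTG that Myc and its relatives bind, for the hypoxia response core ACGTG, which overlaps the E-box, and for the ATF4 element TGATGNAAN. The ACGTG core was found for 5 genes, in 1 window of each: Slc2a1, Slc3a2, Slc16a1, Slc16a3 and Tfrc. Of all 32851 promoter windows of this length, 16.6% held it. The windows of these genes with the core were 53.6% to 76.4% G and C, against a median of 52.4% over all windows. The part of base composition in this count was not tested. The E-box was found for 1 gene, Slc16a1, against 6.0% of all windows, and the ATF4 element for 0 members, against 3.4%. Windows of Slc38a2 and of both Slc7a1 starts held none of the 3 patterns. The windows of the 3 members that hold the core and were measured are shown 5′ to 3′ on the strand of the gene, with the core in capitals. That of Slc2a1 is chr4:119108495-119108744 on the plus strand, with the core 36 bases before the start. That of Slc3a2 is chr19:8713898-8714147 on the minus strand, with the core read from the opposite strand 164 bases before the start. That of Slc16a3 is chr11:120948817-120949066 on the plus strand, with a core at 27 and another at 14 bases before the start:
Slc2a1: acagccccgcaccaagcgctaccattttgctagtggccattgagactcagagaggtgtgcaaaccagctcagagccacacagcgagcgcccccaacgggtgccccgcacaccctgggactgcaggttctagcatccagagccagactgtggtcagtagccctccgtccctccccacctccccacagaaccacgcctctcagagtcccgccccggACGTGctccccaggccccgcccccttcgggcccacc
Slc3a2: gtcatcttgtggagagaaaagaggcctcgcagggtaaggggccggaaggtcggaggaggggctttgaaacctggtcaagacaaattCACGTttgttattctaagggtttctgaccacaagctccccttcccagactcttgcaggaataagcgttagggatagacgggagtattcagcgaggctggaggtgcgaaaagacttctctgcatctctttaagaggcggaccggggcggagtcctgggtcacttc
Slc16a3: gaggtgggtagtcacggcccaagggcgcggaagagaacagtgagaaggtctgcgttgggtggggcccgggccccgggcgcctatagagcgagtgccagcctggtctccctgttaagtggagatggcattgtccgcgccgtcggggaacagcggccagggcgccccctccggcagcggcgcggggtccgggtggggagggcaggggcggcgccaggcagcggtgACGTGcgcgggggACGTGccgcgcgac

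Levels are given as log2 of the processed signal minus the 75th percentile of the same array, so 0 is the signal that 75% of the gene probes stay under, and levels of different genes are not compared. Well above background is a flag of the scanner software, and 22.6% to 38.6% of gene probes carried it on each array. Cd8a, Cd8b1 and Cd3e, markers of CD8+ T cells, carried it on all 24 arrays. Cd3e was itself called higher at day 4 than in the graft (log2 difference 0.81, limma adjusted p = 0.00866). Cd8a (0.32, limma adjusted p = 0.475) and Cd8b1 (0.21, 0.713) were not called. The 4 graft arrays shared a slide and a scan day that held no other sample, while each of the other 5 slides held 1 array of every day 4 site, so slide, scan and graft cannot be told apart. Correlations between arrays of a group were 0.938 to 0.973 in the graft, 0.849 to 0.961 in lung and as low as 0.732 in intestine. Of the 8 measured members 5 read lowest of the lung arrays on lung 4 and 4 lowest of the intestine arrays on intestine 4. Results are also given without those 2. As the members' own low readings singled these arrays out, leaving them out favours larger day 4 differences and gives no independent support. Markers of other cells were summed per array in units of its 75th percentile, over genes well above background. B cell and plasma cell markers summed to between 309 and 432 in the graft (13 of 16 genes) and to between 7.88 and 86.9 at day 4, where Ms4a1 was never well above background (Pax5 was below it in the graft too). Neutrophil and monocyte markers summed to between 445 and 576 in the graft (12 of 15 genes) and to between 57.1 and 241 at day 4, with Ly6g below background in every group. Macrophage and dendritic cell markers summed to between 220 and 299 in the graft (14 of 17 genes) and to between 21.4 and 459 at day 4, with lung 4 (326) and intestine 1 and 2 (366 and 459) above every graft array. Erythroid markers summed to between 10.8 and 303 in the graft (8 of 13 genes) and to at most 67.4 at day 4. T cell identity genes summed to between 374 and 585 in the graft and to between 269 and 924 at day 4. The part of these other cells in the differences from the graft was not tested, and in bulk samples fewer cells of a type and less RNA per cell cannot be told apart.

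**Figure D1:**
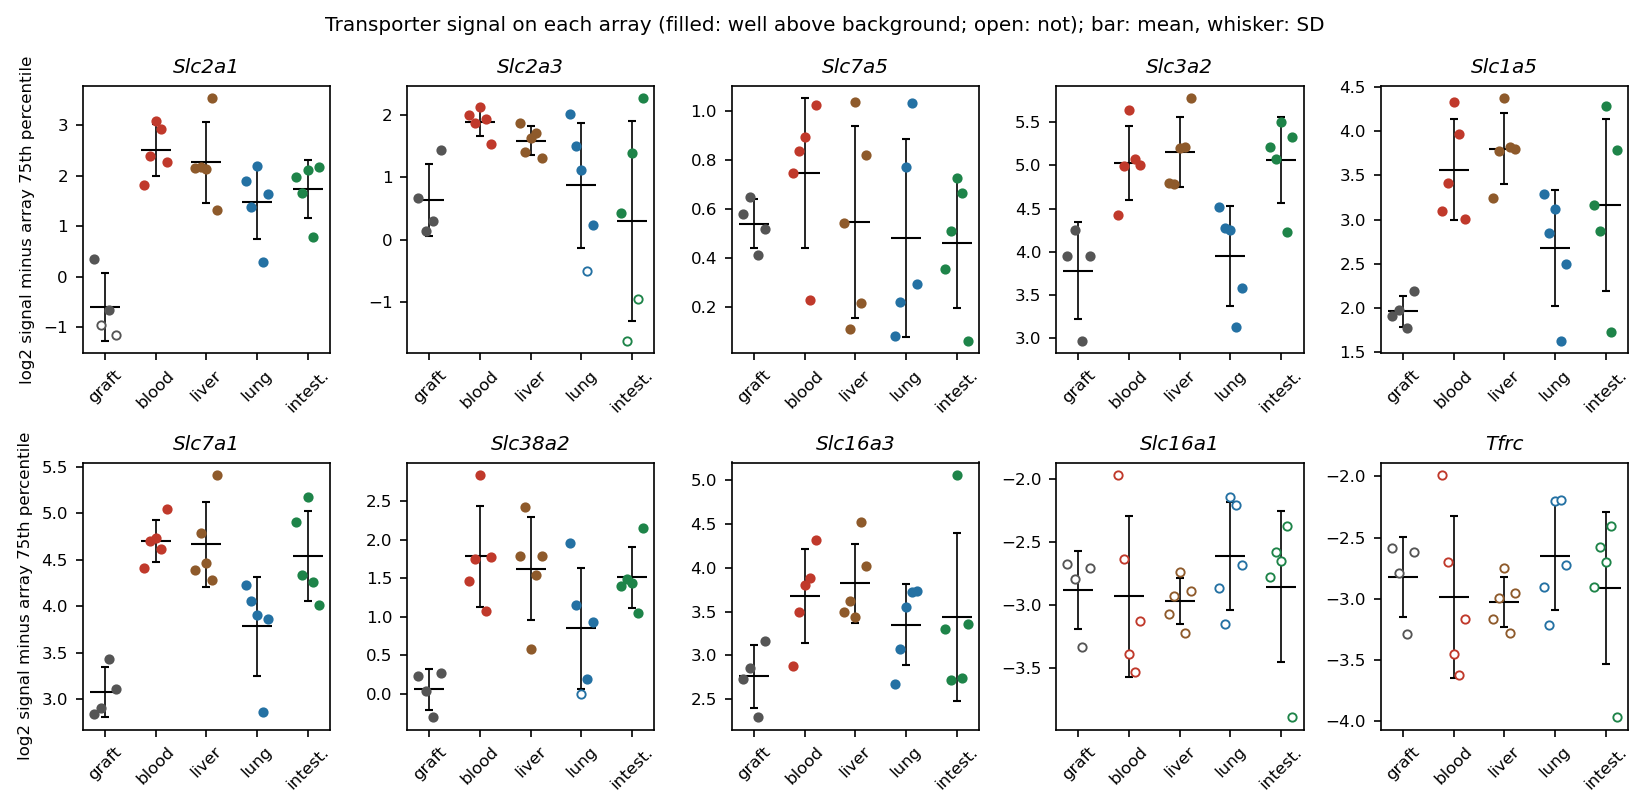
Signal of the 10 transporters on each array, as log2 of processed signal minus the array's 75th percentile (vertical axis), by group (horizontal axis); points are arrays, filled where well above background and open where not, and bars and whiskers are means and SDs. Each panel has its own scale. Slc2a1 sits between -1.15 and 0.36 on the 4 graft arrays and between 0.30 and 3.54 on the 20 day 4 arrays, and every point of Slc16a1 and of the Tfrc probe on 10 spots is open.

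The glucose transporters differed in their calls, and their differences from the graft were not tested against each other. Slc2a1, the main glucose carrier of activated T cells, read 6.05-fold higher at day 4. The difference of Slc2a3, a carrier with higher affinity, did not pass the test. The 4 graft arrays read Slc2a1 at levels of 0.36, -0.96, -0.65 and -1.15, of which 2 were well above background. The fold therefore includes graft readings at background. Slc2a1 passed the filter only through the day 4 groups, where it was brighter, so the filter favoured a higher call. The levels were 1.82, 2.39, 3.09, 2.93 and 2.28 in blood and 2.16, 2.18, 2.14, 3.54 and 1.32 in liver. They were 1.90, 1.38, 2.19, 0.30 and 1.63 in lung and 1.97, 1.67, 2.11, 0.79 and 2.17 in intestine. Of the 20 day 4 arrays, 19 lay above every graft array, and lung 4 lay just under graft 1. Against the graft the log2 difference, as for all day 4 differences an equally weighted mean of the 4 sites, was 2.60 ± 0.35 (SE; limma adjusted p = 2.05e-06). By site it was 3.10 (blood), 2.87 (liver), 2.08 (lung) and 2.34 (intestine), and Slc2a1 was called higher at each. Over 36 alternative settings the day 4 difference ran from 1.65, with normexp background correction, to 2.92, without graft 1, and each kept the call.

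Slc2a3 read 0.67, 0.14, 0.30 and 1.43 in the graft. It was high and even in blood, at 1.99, 1.87, 2.13, 1.94 and 1.53, and in liver, at 1.87, 1.41, 1.62, 1.71 and 1.31. It scattered in lung, at 2.01, 1.49, 1.11, -0.50 and 0.23, and more so in intestine, at 0.43, -1.62, 1.38, -0.95 and 2.27. The lowest 3 of these arrays, lung 4, intestine 2 and intestine 4, were not well above background. All 5 blood arrays lay above the graft, yet the day 4 difference was 0.53 ± 0.469 (SE; limma adjusted p = 0.351), with a 95% interval from -0.44 to 1.49. In blood it was 1.26 (limma adjusted p = 0.0659), which passed without graft 4 (1.52, 0.0454), without intestine 2 (1.26, 0.0373) and without intestine 5 (1.26, 0.0341). It also passed with array weights (1.30, 0.00429), with only the 2 groups compared (1.26, 0.00219) and without lung 4 and intestine 4 (1.26, 0.0402). In liver it was 0.95 (limma adjusted p = 0.171) and passed with array weights (1.13, 0.00935) and with only the 2 groups compared (0.95, 0.0125). The descending order of site means was blood, liver, lung and intestine, and no neighbouring pair in that order passed the test.

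The chains of the leucine transporter differed in their calls, and their differences from the graft were not tested against each other. The heavy chain Slc3a2 rose 2.02-fold, while the light chain Slc7a5 differed by 0.02 on the log2 scale. Slc3a2 read 3.96, 4.25, 2.97 and 3.95 in the graft. It read 4.43, 4.99, 5.64, 5.07 and 5.01 in blood and 4.80, 4.79, 5.19, 5.21 and 5.78 in liver. In lung it read 4.51, 4.28, 4.25, 3.13 and 3.59, and in intestine 5.21, 5.07, 5.49, 4.22 and 5.32. Every blood and liver array and 4 of 5 intestine arrays lay above the graft, while 3 of 5 lung arrays lay within its range. The day 4 difference was 1.02 ± 0.271 (SE; limma adjusted p = 0.00327), with 1.24 in blood, 1.37 in liver, 1.28 in intestine and 0.17 in lung (limma adjusted p = 0.715 in lung). The day 4 call ended under each scaling that brought the median of all genes below 0, at 0.61 (limma adjusted p = 0.0838), 0.47 (0.0911) and 0.55 (0.0604), and at 0.55 (0.06) in the deposited table.

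Slc7a5 was measured by 2 probes that did not move alike. The brighter one was well above background on all 24 arrays. It read 0.58, 0.65, 0.42 and 0.52 in the graft, and from 0.06 to 1.04 with a median of 0.61 over the 20 day 4 arrays, which lay on both sides of the graft (10 above, 8 below). Its day 4 difference was 0.02 ± 0.195 (SE; limma adjusted p = 0.946), with a 95% interval from -0.39 to 0.42. It lay below 0 in 11 of 36 alternatives, at -0.53 at the lowest. The second probe, printed above, was well above background on 13 arrays, 4 of them graft. It read 0.06, 0.23, 0.01 and 0.19 in the graft and from -1.17 to 0.66 with a median of -0.51 at day 4. In the fit over all probes it was lower by 0.58 ± 0.246 (log2 difference -0.58; limma adjusted p = 0.0499) at day 4 and called in blood (-0.78, adjusted p = 0.0317). The second probe passed the filter through the graft alone, where it was brighter, so the filter favoured a lower call. It was well above background on 9 of 20 day 4 arrays, so its difference includes readings at background. The mean of both probes differed by -0.28 and was not called (limma adjusted p = 0.214).

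**Figure D2:**
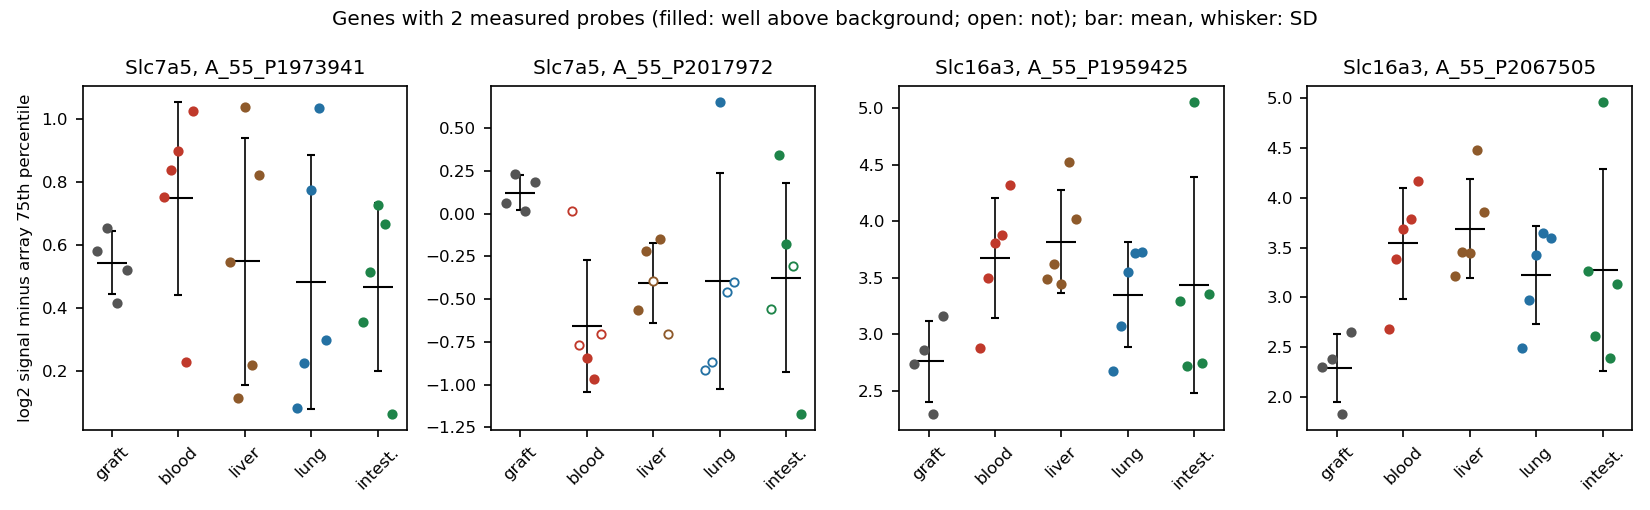
Levels of the 2 measured probes of Slc7a5 and of Slc16a3, as log2 of processed signal minus the array's 75th percentile (vertical axis), by group; points are arrays, open where not well above background, and bars and whiskers are means and SDs. The second Slc7a5 probe has a mean of 0.12 in the graft and means from -0.66 to -0.37 at the 4 sites, while the first has means from 0.46 to 0.75 in all 5 groups; the Slc16a3 probes share 53 bases and follow each other.

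Across the 20 day 4 arrays, with site means removed, the chains showed no relation that passed a test: Pearson's r between Slc7a5 and Slc3a2 was -0.15 (permutation p = 0.576) and Spearman's rho was -0.06 (permutation p = 0.828), adjusted p = 0.576 and 0.828 over 2 such relations. Without blood 4 and lung 4, the arrays farthest from the median of Slc7a5, r was 0.04. Without lung 4 and intestine 4 it was 0.23 (permutation p = 0.428), and with quantile normalisation -0.48 (permutation p = 0.0866).

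Both glutamine carriers rose. Slc1a5 rose 2.53-fold and Slc38a2 2.60-fold at day 4. Slc1a5 was tight in the graft, at 1.91, 1.98, 1.77 and 2.19, and every blood and liver array lay above that range. It read 3.10, 3.41, 4.33, 3.97 and 3.01 in blood and 3.25, 3.78, 4.38, 3.82 and 3.80 in liver. In lung it read 3.29, 2.85, 3.12, 1.63 and 2.50, and in intestine 3.17, 2.87, 4.29, 1.73 and 3.79. Only lung 4 and intestine 4 fell outside the rise, and both lay below every graft array. Both were singled out by low readings of members including this one, so leaving them out favours a larger difference. The day 4 difference was 1.34 ± 0.334 (SE; limma adjusted p = 0.00193), and 1.495 without those 2 arrays. By site it was 1.60 in blood, 1.84 in liver, 1.21 in intestine (limma adjusted p = 0.0252) and 0.71 in lung (0.176, not called; 0.98 and 0.019 without lung 4 and intestine 4). The intestine call ended in 7 of 37 alternatives. It ended without graft 1 (1.19, limma adjusted p = 0.0545), graft 3 (1.14, 0.0613), intestine 3 (0.93, 0.0797) or intestine 5 (1.05, 0.0646). It also ended with no signal filter (1.21, 0.0501), with only the 2 groups compared (1.21, 0.0751) and with the 75th percentile over probes detected on every array (0.91, 0.0913). The second Slc1a5 probe (A_55_P2136318) was well above background on 8 arrays, all of day 4, and did not pass the filter.

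Slc38a2, whose carrier brings in small neutral amino acids with sodium, read 0.23, 0.04, -0.30 and 0.27 in the graft. It read 1.46, 1.75, 2.84, 1.08 and 1.78 in blood and 1.79, 2.43, 0.58, 1.54 and 1.79 in liver. In lung it read 1.96, 1.16, 0.00, 0.20 and 0.93, with lung 3 not well above background, and in intestine 1.40, 1.49, 1.44, 1.06 and 2.15. All arrays of blood, liver and intestine lay above the graft, and lung 3 and lung 4 lay within its range. The day 4 difference was 1.38 ± 0.32 (SE; limma adjusted p = 0.00101), with 1.72 in blood, 1.56 in liver, 1.45 in intestine and 0.79 in lung (limma adjusted p = 0.118 in lung). Both genes kept the day 4 call in all 36 alternatives, at 0.80 to 1.495 for Slc1a5 and 0.84 to 1.45 for Slc38a2.

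Slc7a1, the carrier of arginine, rose 2.55-fold. It read 2.84, 2.90, 3.44 and 3.11 in the graft and was well above background on all 24 arrays. It read 4.41, 4.70, 4.74, 4.61 and 5.04 in blood and 4.39, 4.78, 4.46, 4.28 and 5.41 in liver. In lung it read 4.23, 4.05, 3.91, 2.86 and 3.86, and in intestine 4.90, 4.34, 5.17, 4.26 and 4.01. All day 4 arrays but lung 4 lay above the graft. The day 4 difference was 1.35 ± 0.237 (SE; limma adjusted p = 5.63e-05) and stayed called in all 36 alternatives (0.80 to 1.52). By site it was 1.63 in blood, 1.59 in liver and 1.46 in intestine. In lung it was 0.71 (limma adjusted p = 0.0581), and it passed without lung 4 (0.94, 0.00862), graft 3 (0.83, 0.0477), liver 5 (0.71, 0.0422) or intestine 3 (0.71, 0.0464).

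Of the lactate carriers, Slc16a3 rose 1.75-fold and Slc16a1 could not be measured. MCT4, the product of Slc16a3, is known as the carrier that exports lactate from cells with high glycolysis. It read 2.74, 2.86, 2.30 and 3.16 in the graft. It read 2.88, 3.50, 3.80, 3.88 and 4.32 in blood and 3.49, 3.62, 3.44, 4.52 and 4.02 in liver. In lung it read 2.67, 3.07, 3.55, 3.72 and 3.73, and in intestine 3.30, 2.72, 5.06, 2.75 and 3.36. Of the 20 day 4 arrays, 15 lay above the graft, including all 5 of liver. The day 4 difference was 0.81 ± 0.32 (SE; limma adjusted p = 0.0375). This call ended in 10 of 36 alternatives: without graft 1 (0.80, limma adjusted p = 0.0835), graft 2 (0.84, 0.0689) or graft 3 (0.65, 0.142), and at 0.26 to 0.40 under the scalings named for Slc3a2, among others. By site only liver was called (1.06, limma adjusted p = 0.0289), and that call ended in 9 of 37 alternatives. It ended without graft 1 (1.05, 0.0566), graft 3 (0.90, 0.0889), liver 4 (0.88, 0.0808) or liver 5 (1.01, 0.0508), and with no signal filter (1.06, 0.0557). The scalings named for Slc3a2 also ended it, at 0.35 to 0.54 (limma adjusted p 0.187 to 0.365). In blood the difference was 0.91 (limma adjusted p = 0.051) and passed without any 1 of graft 4, blood 1, liver 4, lung 1, intestine 2, intestine 3 or intestine 4 (0.91 to 1.11; adjusted p 0.0141 to 0.0484). The second probe gave a larger difference (1.14 ± 0.335 SE; limma adjusted p = 0.00674 in the fit over all probes) and was called in blood and liver.

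Bsg, the chaperone basigin that brings these carriers to the membrane, was 0.85 higher at day 4 (limma adjusted p = 0.00223), on 19 of 20 arrays above the graft. Across the 20 day 4 arrays, with site means removed, Pearson's r between Slc16a3 and Bsg was 0.24 (permutation p = 0.345; adjusted p = 0.576) and Spearman's rho was 0.22 (permutation p = 0.393; adjusted p = 0.786). Without intestine 3 and liver 4 r was 0.41, and under the other scalings it ran from -0.12 to 0.33.

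Slc16a1 and Tfrc gave no level. The single Slc16a1 probe (A_66_P137384, chr3:104462276-104462335, mm9) and the 3 Tfrc probes were not well above background on any of the 24 arrays. Processed signals lay between 97.0 and 378 for Slc16a1 and between 87.2 and 408 for Tfrc, graft and day 4 alike, so no fold is given. This holds for a Tfrc probe printed on 10 spots per array as for the others. A transcript below this background is not shown to be absent.

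Counted together, 6 of the 8 measured members were called higher at day 4 and 0 lower, where 34.4% of all genes were called higher, 19% lower and 53.4% in all. Their median log2 difference was 1.18, against 0.23 over all genes tested. None of the 8 had all 20 day 4 arrays above all graft arrays, where 10.9% of all genes did. Slc2a1 is among the 6, though it passed the filter only through the day 4 groups, where it was brighter. The site comparisons share the graft arrays. In blood 5 of 8 were higher (35.3% of all genes, of 56.4% called), with a median of 1.43 against 0.29. In liver 6 of 8 were higher (34.4%, of 50.4% called), with a median of 1.47 against 0.34, and in intestine 5 of 8 (22.1%, of 34.8% called), with a median of 1.24 against 0.09. In lung 1 of 8 was higher, Slc2a1 (25.8% of all genes, of 37.4% called), with a median of 0.65 against 0.19. The lung count was 2 without any 1 of graft 3, liver 5, lung 4 or intestine 3 and with normexp, 3 without lung 4 and intestine 4 together, and 4 with array weights. Lung 4 and intestine 4 were singled out by low readings of the members, so the count without them is no independent support. None of the 8 was called lower at any site, where 21.1% (blood), 15.9% (liver), 11.6% (lung) and 12.7% (intestine) of all genes were. At an unadjusted p under 0.05 none was lower either.

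**Figure D3:**
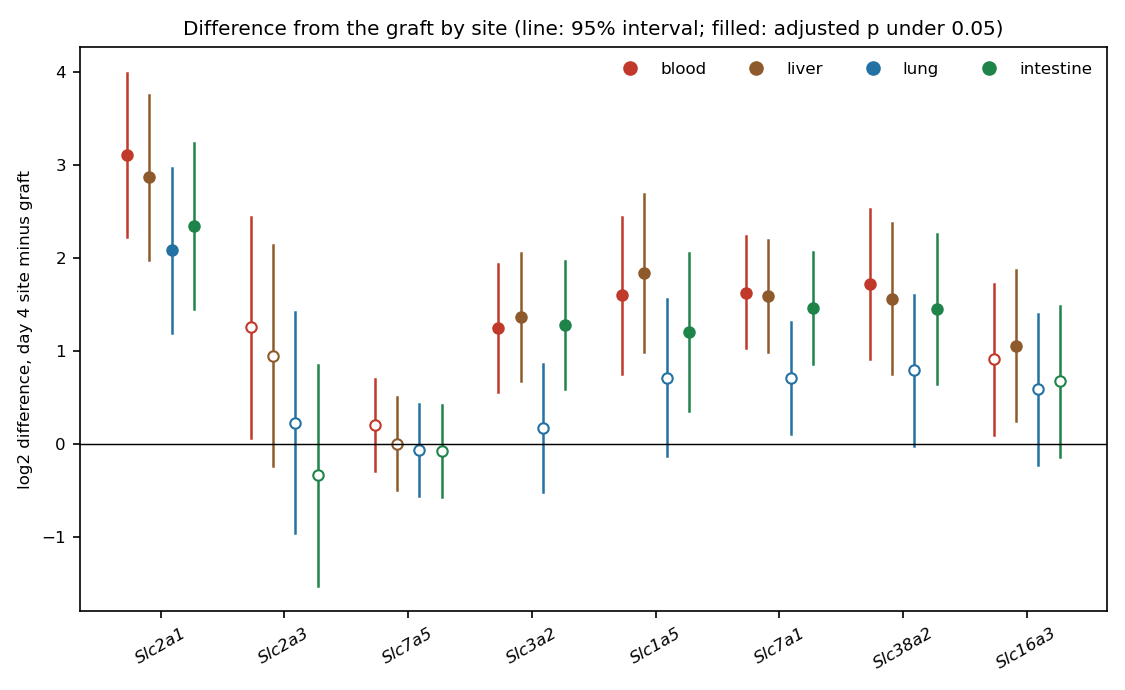
Log2 difference of each day 4 site from the graft (vertical axis) for the 8 measured members (horizontal axis), with 95% intervals from the limma fit; filled points have an adjusted p under 0.05. Slc2a1 is filled at all 4 sites, from 2.08 in lung to 3.10 in blood, the lung point of Slc3a2 sits at 0.17, and all 4 points of Slc7a5 lie within 0.21 of 0.

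The scaling of the arrays bears on these values. The median of all genes lay at 0.23 in the main setting and at -0.32 to 0.29 under the others, and 4 of 8 members (Slc2a1, Slc1a5, Slc7a1 and Slc38a2) were called higher under each scaling. The split of all genes into higher and lower calls was 3241 and 1789 in the main setting. It was 2161 and 3115 when the percentile was taken over probes detected on every array, 2067 and 3590 with their median, 2549 and 2523 with quantile normalisation, and 3465 and 1398 with normexp. The members' median stayed above that of all genes under every scaling, at 0.63 to 1.18 (0.63 against -0.32 with the median of detected probes).

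**Figure D4:**
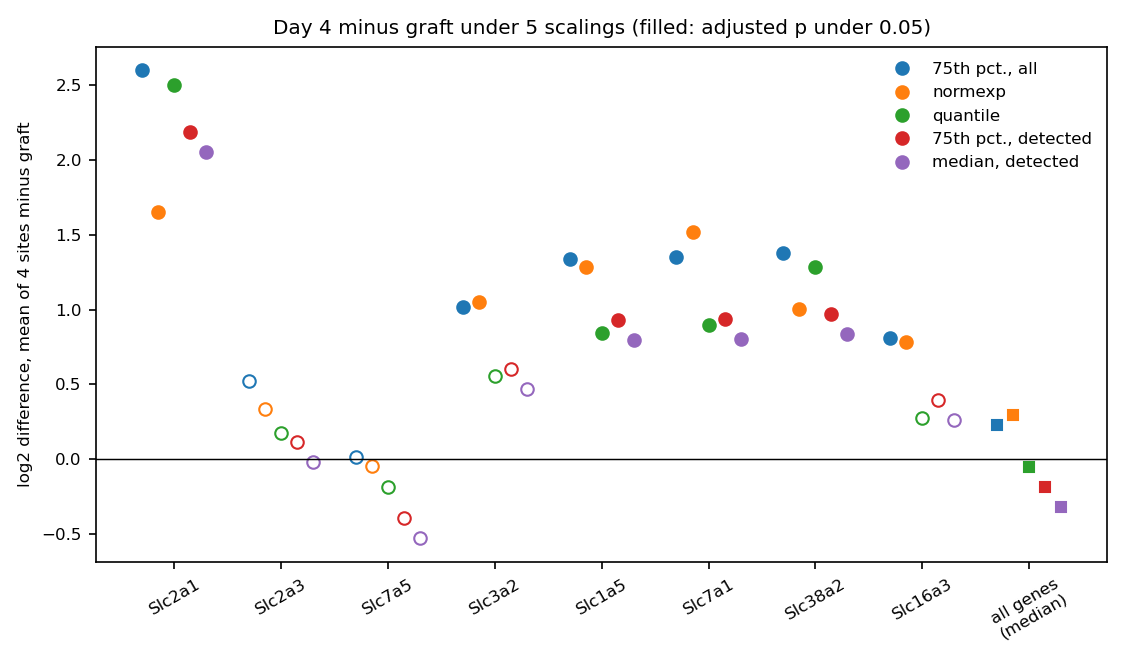
Day 4 minus graft on the log2 scale (vertical axis) for the 8 measured members and for the median of all genes (squares), under 5 ways of scaling the arrays (colours); filled circles have a limma adjusted p under 0.05. Slc2a1 stays between 1.65 and 2.60, Slc3a2 and Slc16a3 lose their fill under 3 of the 5, and Slc7a5 lies at 0.02 in the main setting and at -0.53 with the median of detected probes.

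The day 4 sites were also compared with each other. Of 48 differences between pairs of sites, 0 were called by limma, where the pairs called between 0% of all genes (liver with blood, intestine with liver) and 13.3% (intestine with blood). The other pairs called 1.54% (lung with blood), 0.456% (lung with liver) and 0.382% (intestine with lung), and the F test across the 4 sites called 4% of all genes and 0 of 8 members. The lowest adjusted p of the F test were 0.0515 for Slc3a2 and 0.0774 for Slc7a1. At an unadjusted p under 0.05 there were 13 of the 48. The share of all genes at that threshold is not given, so this count has no background to be read against. Lung was below blood in Slc2a1, Slc3a2, Slc1a5, Slc7a1 and Slc38a2 (median of all genes -0.23) and below liver in the last 4 of these (median -0.20). Intestine was below blood and liver in Slc2a3 (medians -0.24 and -0.26) and above lung in Slc3a2 and Slc7a1 (median -0.12).

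Most of these gaps concerned lung. They are described by overlap and by slide, but the share of all genes that behaved so in these pairs is not given. Slc7a1 was lower in lung than in blood on each of the 5 slides, and the groups did not overlap (log2 difference -0.92 ± 0.273 SE, limma adjusted p = 0.0755). It was also lower than in liver on each slide, again with no overlap (-0.89, limma adjusted p = 0.168). Slc3a2 was lower in lung than in liver on all 5 slides, with no overlap (-1.20 ± 0.312 SE, limma adjusted p = 0.0977), and lower than in blood on 4 of 5 (-1.08, adjusted p = 0.0724). It was higher in intestine than in lung on all 5 slides (1.11, limma adjusted p = 0.129). Slide as a fixed block left these uncalled, at adjusted p = 0.0502 for Slc3a2 and 0.0522 for Slc7a1 against blood. Without lung 1 the fit called Slc3a2 (-1.22, limma adjusted p = 0.0342), Slc7a1 (-1.03, 0.0376) and Slc38a2 (-1.21, 0.0414) lower in lung than in blood, and Slc3a2 lower than in liver (-1.34, 0.0457). Without intestine 4 Slc3a2 was called against blood (-1.08, limma adjusted p = 0.044). Without both lung 4 and intestine 4 the lung gaps narrowed to -0.87 for Slc3a2 (limma adjusted p = 0.15) and -0.69 for Slc7a1 (0.175) against blood.

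Markers of other cells also differed between these sites. Macrophage and dendritic cell markers summed to between 50.6 and 326 in lung, highest in lung 4, against 22.7 to 30.7 in blood and 21.4 to 117 in liver, from 11 of 17 genes in lung and with C1qa, C1qb and C1qc below background there. Lung epithelial markers summed to between 7.96 and 183 in lung (7 of 10 genes, with Nkx2-1 and Epcam below background) and 5.56 to 13.6 in blood. T cell identity genes summed to between 475 and 725 in lung, 522 to 727 in blood and 604 to 798 in liver. The T cell marker Cd8a was also lower in lung than in liver on all 5 slides, with no overlap (log2 difference -0.86, limma adjusted p = 0.286). Cd8b1 (-0.94, limma adjusted p = 0.317) and Cd3e (-0.20, 0.608) were not called in that pair either. The part of other cells, or of a shift shared with T cell markers, in the lung levels was not tested.

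Slc2a3 was lower in intestine than in blood on 4 of 5 slides (log2 difference -1.59 ± 0.541 SE, limma adjusted p = 0.0529). With slide as a fixed block it passed (adjusted p = 0.0449). It also passed without lung 1 (-1.59, limma adjusted p = 0.0491), lung 4 (-1.59, 0.0396), intestine 3 (-1.86, 0.0249) or intestine 5 (-2.08, 0.00625), and without intestine 5 it passed against liver (-1.78, 0.0254). Without lung 4 and intestine 4 together it was -1.28 (0.124). Macrophage and dendritic cell markers summed to 366, 459, 38.5, 108 and 33.1 on intestine arrays 1 to 5 (16 of 17 genes). Intestinal epithelial markers summed to 30.4, 83.9, 6.06, 230 and 0.48 (8 of 11 genes, with Epcam, Lgr5 and Muc2 below background). The epithelial sums were not particular to intestine, with 133 on liver 5 and 85.7 and 68.6 on lung 4 and 5. Slc2a3 was highest on intestine 5 and 3, the arrays with the lowest sums of both lists, and lowest on intestine 2. T cell identity genes summed to 293 on intestine 2 and 269 on intestine 4. The part of these cells was not tested.

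**Figure D5:**
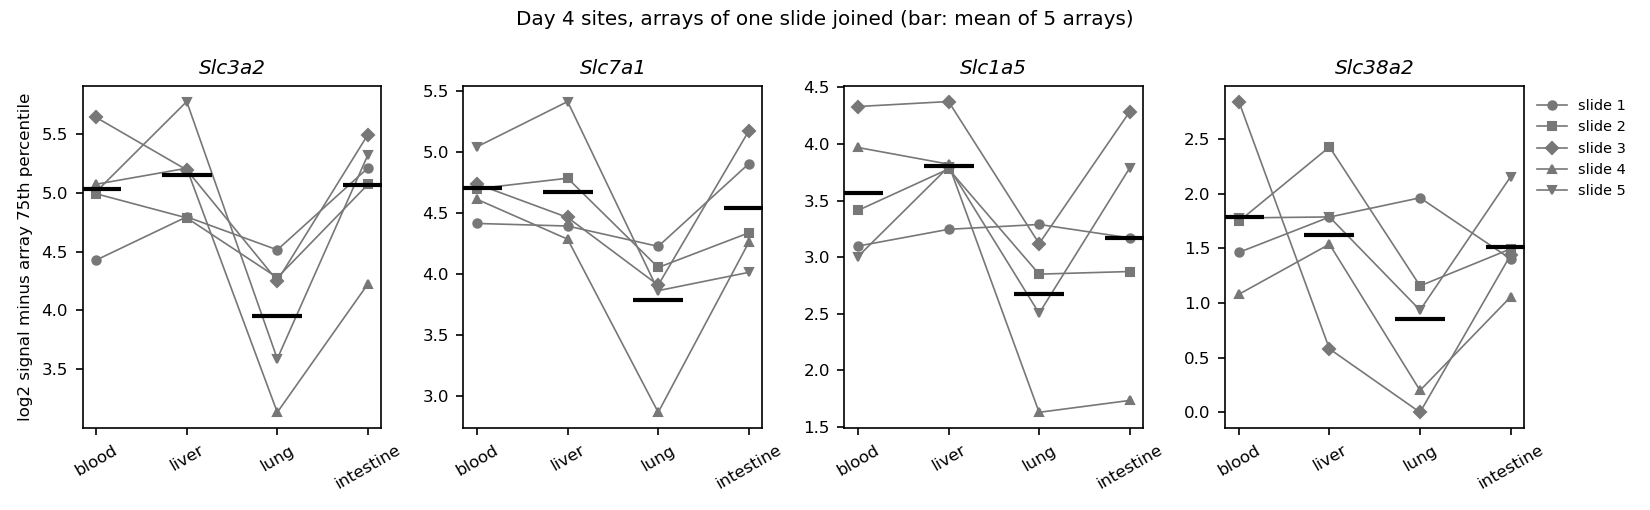
Levels of 4 amino acid carriers at the 4 day 4 sites, as log2 of processed signal minus the array's 75th percentile; lines join the arrays of 1 slide and bars are means of 5 arrays. Slc7a1 falls from blood to lung on all 5 slides (means 4.70 and 3.78), and Slc3a2 falls from liver to lung on all 5 (means 5.15 and 3.95).

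Other genes of the same pathways went both ways. Their counts, by limma over all 9423 genes for day 4 against the graft, stand beside 34.4% of all genes higher, 19% lower and a median log2 difference of 0.23. Where only some arrays of a group were well above background their number is given, and the difference then includes readings at background. Of 5 measured genes listed as hexose or sugar phosphate transporters, of 13 on the array, 1 rose and 1 fell. Slc2a8 was at least 2.76-fold higher, dim on all graft arrays. Slc37a2, of a sugar phosphate carrier family, had a log2 difference of -0.59 (3 of 4 graft and 3 of 20 day 4 arrays well above background). The median was -0.03. Of 12 other genes of amino acid transporter families, of 34, 5 rose and 2 fell, with a median of 0.35. Slc43a3 (3.88, on 1 of 4 graft arrays well above background), of such a family but known as a carrier of purine bases, rose. Slc38a1 (2.27), a glutamine carrier and close relative of Slc38a2, also rose. Slc1a4 (-3.86), the relative of Slc1a5 that carries alanine and serine, and Slc15a4 (-2.13), a histidine and peptide carrier of endolysosomes, fell. Slc1a4 and Slc15a4 were below every graft array on all 20 day 4 arrays. The share of all genes that were so is not given, here or for the genes below. Of 6 other monocarboxylate carriers and chaperones of 15, 3 rose and 2 fell: Emb (1.95), a second chaperone, and Slc16a6 (2.14-fold) rose with Bsg. Slc16a5 fell, at least 1.82-fold and below background on all day 4 arrays, as did Slc16a7 (-3.49, on 1 of 20 day 4 arrays well above background), a pyruvate carrier. The median was 0.18.

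Of 16 iron handling genes of 26, 3 rose and 3 fell, with a median of 0.06. The metal carrier Slc39a14 was at least 1.90-fold higher. Hmox1 (-1.94), which frees iron from haem, and Hfe (-2.74), a partner of the transferrin receptor, fell, and were well above background on 12 and 2 of 20 day 4 arrays. Of 13 genes for uptake of nucleosides, vitamins and lipids of 27, 6 rose and 2 fell, with a median of 0.18. Fabp5 (2.93), the nucleoside carrier Slc29a1 (2.51) and the folate carrier Slc19a1 (1.497) rose, and the thiamine carrier Slc19a2 was at least 1.42-fold higher, while the nucleoside carrier Slc28a2 (-0.81) and the lipoprotein receptor Scarb1 (-0.52) fell. The F test across the 4 sites called 1 gene of this list, 2 of the mTORC1 list and 0 of the other lists.

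Of 16 measured genes that use glucose and glutamine, of 18, 9 rose and 1 fell, with a median of 0.95. Asns (5.31, on 1 of 4 graft arrays well above background), which makes asparagine, Psat1 (3.77), of serine synthesis, and the transaminase Got2 (2.75) rose on all 20 arrays above the graft. Hk2, the hexokinase that traps glucose in the cell, was at least 4.78-fold higher, and Pfkfb4 (-2.86, on 9 of 20 day 4 arrays well above background) fell. Of 27 genes of mTORC1 and nutrient sensing of 36, 11 rose and 4 fell, with a median of 0.40. The mTORC1 inhibitor Ddit4 (2.35) rose and the activator Rheb was at least 2.02-fold higher. Tbc1d7, a subunit of the complex that restrains Rheb, was also called higher, dim on all graft arrays and with no bound above 1. Lamtor2 (-1.45), of the lysosomal anchor of mTORC1, and Prkag1 (-0.80, on 9 of 20 day 4 arrays well above background), a subunit of the energy sensor AMPK, fell on all 20 arrays. With the 75th percentile of detected probes 8 of this list were higher and 8 lower, with a median of -0.02. The list of other amino acid transporter families then split 4 to 5, whereas the glucose and glutamine list kept a positive median under each scaling (0.41 to 0.95).

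Of 14 transcription factors of nutrient transport and their regulators, of 24, 5 rose and 2 fell, with a median of 0.61. Batf (2.17) and Epas1 (1.81), which encodes a hypoxia-inducible factor, rose. Arnt, the shared partner of these factors, was at least 1.67-fold higher and Hif1a at least 1.23-fold. Atf5 (-0.97) and Atf4 (-0.53, limma adjusted p = 0.0468) fell. Myc read 0.70 higher and was not called (limma adjusted p = 0.433). Levels of messenger RNA do not give the amount or activity of these proteins, which for Hif1a and Atf4 are known to be set largely after transcription.

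For each measured member the most similar profiles over the 24 arrays were found as the smallest root mean square difference after centring, among all genes tested. Slc2a1, whose own SD over the arrays was 1.22, lay nearest to Mzt2 (0.42) and Mfsd10 (0.42). Slc2a3 (SD 1.03) lay nearest to Gimap7 (0.48) and Focad (0.49). Slc7a5, which varied least (SD 0.31), lay nearest to Opa3 (0.24) and Atg4d (0.25), and for Slc3a2 (SD 0.75) Rela is given (0.38). Slc1a5 (SD 0.86) lay nearest to Nab1 (0.29) and Emc7 (0.30), and Slc7a1 (SD 0.73) to Prelid3b (0.30) and Aasdhppt (0.33). Slc38a2 (SD 0.83) lay nearest to Ctnnb1 (0.43) and Eif5a (0.44), and Slc16a3 (SD 0.65) to Sin3b (0.33) and Cdc42 (0.33). These arrays share the split between graft and day 4, which any gene that rose also follows.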

How the data were processed

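Each of the 24 samples had 1 Cy3 array. The authors deposited Feature Extraction files whose processed signal is a background-subtracted intensity on a linear scale (version 9.5.1.1 per the file headers, 10.7 per the submitters' processing notes). They also deposited a log2 table, which matched quantile-normalised, probe-median-centred log2 signal across probes (lowest correlation 0.9991). It served only as an alternative, and what stays unknown of it is how the authors computed it. Probe coordinates are on mm9 per the file headers, and RefSeq promoters are on GRCm38.p6.

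Control and non-uniform spots were dropped, repeated spots averaged, and the 75th percentile of gene probes on an array subtracted from log2 of its processed signal. Probes tested had to be well above background throughout some group, with 1 array of it allowed to miss (11250 probes). Each of 9423 genes was represented by its brightest probe. For naming, 27508 probes matched RefSeq by accession, 3544 by symbol and 404 by synonym, and 1371 kept the name in the files. One limma model (3.58.1, R 4.3.3) with a mean per group was fitted to all 24 arrays, and 11 contrasts were taken from it, with Benjamini-Hochberg adjustment over all genes in each and 0.05 as the threshold. "At least" folds set the bright group's mean against the higher of the dim probe's own signal and the lowest detected signal per array. Correlations used 100000 permutations. The script was tested on simulated data.

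The members and lists were chosen with earlier results of these data known. Named beside the members were up to 4 called genes per list, by adjusted p, up to 2 called in the minority direction, the partner Bsg, and Myc and C1q genes chosen after their values were seen. Some genes that this rule names are not reported here. The closing section gives the effect of other scalings, background corrections, filters, probe rules, weights, blocks and left-out arrays. The number of arrays limits the precision.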

Additional observations from a re-analysis of the deposited data

Results flagged for a closer look

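In 40 groups of 4 or 5 arrays (8 members in 5 groups) the distance of the highest or lowest array from its nearest neighbour was set against the range of the group, and 2 groups held an array that stood far from the others. About 1 in 20 groups does so by chance. For Slc7a1 in lung, lung 4 was lowest at 2.86, with the next array at 3.86, and the gap was 0.734 of the range. For Slc16a3 in intestine, intestine 3 was highest at 5.06, with the next at 3.36, and the gap was 0.728 of the range.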

How the results depend on the processing

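Day 4 differences from the graft were recomputed under 36 alternatives, those of single sites under 37, pairs of sites under 38 and correlations under 6. Slc2a1, Slc1a5, Slc7a1 and Slc38a2 kept the day 4 call in all 36, and Slc3a2 lost it in 4 and Slc16a3 in 10. The cause of the changes below was not tested.

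With the 75th percentile over the 6492 probes detected on every array, 3 members were higher in liver and 3 in intestine, and Slc7a5 turned to -0.393 at day 4, -0.131 in blood and -0.514 in liver, Slc2a3 to -0.261 and Slc3a2 to -0.322 in lung. With the median of these probes, 3 members were higher and 1 lower in liver and 1 differed between intestine and lung; Slc7a5 was -0.527 at day 4, -0.418 in blood and -0.701 in liver, where limma called it lower (adjusted p = 0.0463), Slc2a3 was -0.02 at day 4 and -0.26 in lung, and Slc3a2 -0.321 in lung. With quantile normalisation 1 member differed between intestine and lung, Slc7a5 was -0.184 at day 4, -0.126 in blood and -0.278 in liver, and Slc3a2 was -0.28 in lung. The deposited table gave 1 for that pair, and -0.183, -0.126, -0.277 and -0.279 in the same order. With normexp 2 members were higher in lung than in graft and 2 differed between lung and blood, and Slc7a5 was -0.047 at day 4 and -0.072 in liver. The mean of a gene's probes put Slc7a5 at -0.282 at day 4, -0.287 in blood and -0.262 in liver, and 1 member passed the F test.

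With array weights 4 members were higher in lung, the pairs called 2 (lung and blood), 1 (intestine and blood), 1 (lung and liver), 1 (intestine and liver) and 2 (intestine and lung), the F test called 3, and Slc7a5 was -0.073 at day 4 and -0.11 in liver. Without lung 4 and intestine 4, singled out by low readings of the members, 3 members were higher in lung and Slc7a5 was -0.029 at day 4.

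With slide as a fixed block 1 member differed between intestine and blood and 1 passed the F test. Replicate numbers were not shown to pair the samples: same-numbered day 4 arrays correlated from -0.368 to 0.564 (30 pairs), and 8 of 20 correlated best with their own number. With the replicate number as a block, 5 members were higher at day 4 and Slc16a3 was 0.735 (limma adjusted p = 0.0557).

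Leaving out each array in turn gave 5 to 6 members higher at day 4, 5 to 7 in blood, 5 to 6 in liver, 1 to 2 in lung and 4 to 5 in intestine. It called 0 to 3 between lung and blood, 0 to 1 between intestine and blood, lung and liver, and intestine and liver, and 0 to 3 by the F test, 3 of them without intestine 5. Signs turned for Slc7a5 (-0.024 to 0.054 at day 4, -0.118 to 0.113 in liver, -0.199 to 0.04 in lung, -0.143 to 0.022 in intestine), for Slc2a3 (-0.054 to 0.573 in lung, -0.827 to 0.145 in intestine), for Slc3a2 in lung (-0.101 to 0.375) and for Slc2a1 between intestine and lung (-0.038 to 0.497). None of these sign changes concerned a difference called in the main setting. Members below background (Slc16a1, Tfrc) are beyond what the signal allows.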
